A study of Mus musculus with 100 samples.

Results

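The unhurt knee of C57BL/6 mice was examined 1-day after injury of the opposite knee. The comparison sets 5 libraries of contralateral joints at 1-day (called uninjured in the labels) against 4 libraries of 0-day joints, 9 of the 100 libraries of a study of 3 mouse strains, and it covers all 17310 genes of the count table. All mice were 10 weeks old, and all 9 libraries belong to experimental batch 1. In the 1-day mice the right knee received a compressive load of 10 to 12 N under isoflurane, which ruptures the anterior cruciate ligament, and buprenorphine, an opioid painkiller, was given after it. The left joint was collected at 1-day and was itself never loaded. The 0-day joints were taken from mice before any injury, and for them neither anaesthetic nor painkiller is mentioned in the methods. Injury of the opposite knee, anaesthesia, painkiller and the day and hour of collection therefore cannot be told apart in this comparison, which asks what happened in a joint that was not hurt. Each library came from a whole joint cut at the ends of the femur and tibia, so bone, marrow, cartilage, synovium, ligament and traces of muscle were ground together. In such a sample fewer cells of a type and less RNA per cell cannot be told apart.

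A knee joint is held together by fibroblasts of the capsule, ligaments and synovium, which build a matrix of collagens and of secreted proteins that organise the collagen fibres and tune the signals cells receive from them. Several of these proteins, among them periostin, tenascins, thrombospondins and asporin, are produced strongly in growing or loaded connective tissue and during repair. Skeletal muscle and fat, the other tissues of relevance here, switch between burning glucose and burning fatty acids with feeding, activity and time of day, and pyruvate dehydrogenase kinase and the perilipins are parts of that switch.

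Total counts of the 9 libraries ranged from 9374169 to 20986027, against 6182016 to 20986027 over the 100 libraries of the study. The deepest was replicate 4 of the 1-day uninjured group. Pearson correlations of log2 CPM (reads of a gene relative to the library's total after TMM scaling) ranged from 0.985 to 0.991 within the groups and from 0.986 to 0.991 between them. These values over all genes mostly follow the range of levels between genes and say little of single genes. The joints expressed the markers of the tissues they hold: Col2a1, the main collagen of cartilage, lay between 1359 and 4310 CPM, Prg4, the lubricant of the joint surface, between 1485 and 2591 CPM, and Myh4, the fast muscle myosin, between 13716 and 37360 CPM. Replicate 1 of the 1-day uninjured group stood apart in muscle content, with a summed level of 15 fast muscle genes of 117662 CPM where the other 8 libraries had 47448 to 76658 CPM. Values of Pdk4, Plin5, Ucp3, Nmrk2 and the fast muscle genes are also given without it. The labels do not say which libraries came from separate animals, so p-values measure only the spread between these libraries.

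Of 17310 genes, 12 were called lower in the unhurt joint at 1-day than at 0-day and 0 higher (0.0693% of genes tested). A call needed an adjusted p below 0.05 (quasi-likelihood test of edgeR, Benjamini-Hochberg over all genes) together with a fold change above 1.5. Before adjustment 512 genes were higher and 593 lower with p below 0.05 (2.96% and 3.43%). DESeq2 called 25 genes lower, the 12 among them, and 1 higher. A fit with a block for the replicate number called 20 lower, the 12 among them, and 6 higher. When each of the 9 libraries was left out in turn, 2 to 12 genes were called lower and 0 to 2 higher, with the fewest (C1qtnf3 and Tnn) without replicate 3 of the 1-day uninjured group. The 12 genes were C1qtnf3, Tnn, Fbn2, Postn, Dkk3, Cthrc1, Aspn, Thbs2 and Megf6, which encode 9 secreted or matrix proteins, Lrrc15, a cell surface protein, and Pdk4 and Plin5, which serve fuel use. In each of them every 1-day uninjured library lay below every 0-day library, which was so for 1.07% of all genes. The median log2 fold change over all genes was 0.01.

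**Figure D1:**
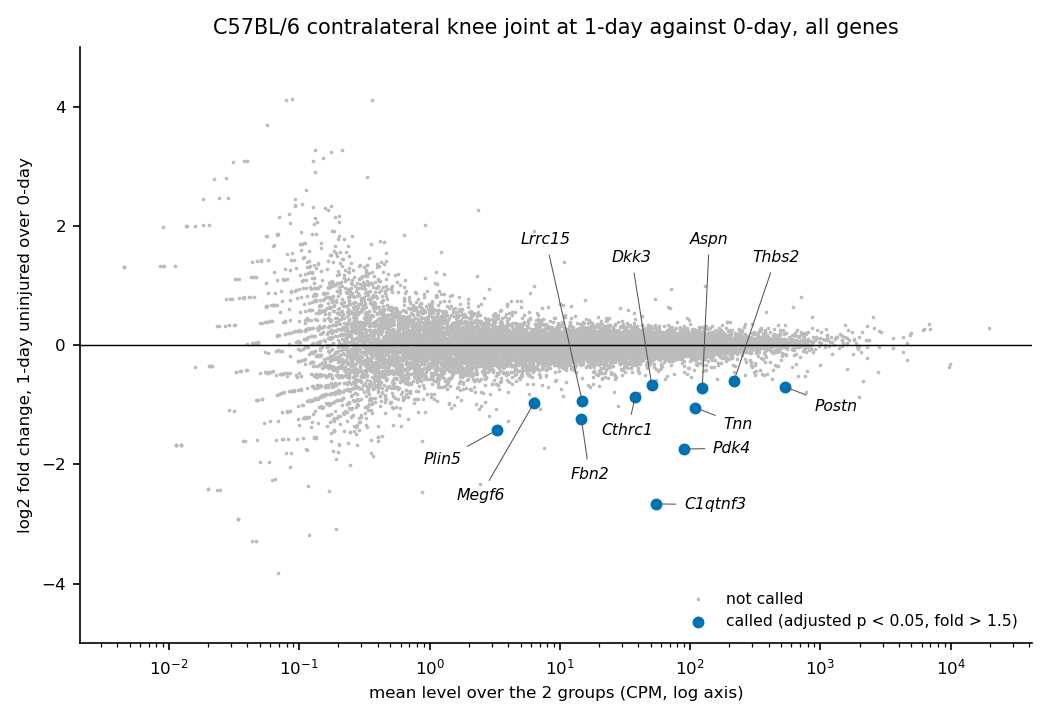
Mean level of each gene over both groups (CPM, log axis) against its log2 fold change, 1-day uninjured over 0-day, in C57BL/6 joints. Grey points are genes that were not called and blue points the 12 called genes, all of which lie below 0, from -2.66 for C1qtnf3 to -0.60 for Thbs2; 15 genes without a count in the 9 libraries are not drawn.

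C1qtnf3, a secreted protein of the C1q and TNF family made by cartilage and connective tissue cells and also known as CTRP3 or cartducin, showed the largest change of the called genes. The gene lies on chromosome 15 from 10952119 to 10980162 (GRCm38.p6). Its levels were 120, 66.1, 74.6 and 117 CPM in the 0-day joints and 12.8, 18.2, 11.5, 16.3 and 15.1 CPM in the unhurt joints at 1-day. The highest 1-day value was thus far below the lowest 0-day value. Means were 94.4 ± 28.0 (SD, n = 4) and 14.8 ± 2.67 CPM (SD, n = 5), and the log2 fold change was -2.66 (SE 0.18, adjusted p = 6.44e-06, edgeR). The call was made in each of 22 alternative analyses, with a log2 fold change from -2.80 to -2.53.

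Tnn, which encodes tenascin-W, a glycoprotein of bone-forming and fibrous tissue, was at 150, 138, 126 and 180 CPM at 0-day and at 61.4, 79.7, 71.3, 72.9 and 72.7 CPM at 1-day (log2 fold change -1.05, SE 0.10, adjusted p = 0.000391, edgeR). The groups did not overlap, and the 1-day libraries were tightly placed. Fbn2, fibrillin 2, a component of the microfibrils that carry elastic fibres, had 21.2, 16.2, 17.2 and 27.8 CPM at 0-day and 9.99, 10.2, 7.49, 8.82 and 7.13 CPM at 1-day (log2 fold change -1.24, SE 0.16, adjusted p = 0.0104, edgeR). Postn encodes periostin, which links collagen to other matrix proteins in periosteum, ligament and healing tissue. Its levels of 709, 639, 565 and 732 CPM at 0-day stood against 355, 438, 391, 396 and 457 CPM at 1-day (log2 fold change -0.70, SE 0.10, adjusted p = 0.0191, edgeR).

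The same order of groups was found for 3 genes with known roles in collagen assembly and in limiting growth factor signals. Aspn, asporin, a small leucine-rich proteoglycan that binds collagen and TGF-beta, was at 177, 150, 114 and 176 CPM at 0-day and at 95.7, 101, 88.2, 81.5 and 103 CPM at 1-day (log2 fold change -0.71, SE 0.12). Thbs2, thrombospondin 2, a matricellular protein that affects collagen fibril assembly, was at 266, 241, 239 and 299 CPM and then at 190, 181, 167, 139 and 183 CPM (log2 fold change -0.60, SE 0.10). Cthrc1, a secreted protein with a short collagen-like repeat that is made by activated fibroblasts, was at 50.1, 44.1, 37.2 and 64.3 CPM and then at 24.6, 33.5, 26.3, 22.9 and 27.3 CPM (log2 fold change -0.87, SE 0.14). The gap between the groups was narrow for Aspn, where the lowest 0-day and the highest 1-day library were 114 and 103 CPM. All 3 had an adjusted p of 0.0437 (edgeR). Of 9 analyses that left out a library, Aspn and Thbs2 were called in 1 and Cthrc1 in 2.

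Dkk3, a secreted glycoprotein of the Dickkopf family, lay between 54.8 and 76.2 CPM at 0-day and between 35.8 and 43.1 CPM at 1-day (log2 fold change -0.66, SE 0.10, adjusted p = 0.0191, edgeR). Lrrc15, a leucine-rich repeat membrane protein found on activated fibroblasts and in bone, lay between 16.3 and 22.9 CPM and then between 7.41 and 13.2 CPM (log2 fold change -0.93, SE 0.15, adjusted p = 0.0437, edgeR). Megf6, a secreted protein with many EGF-like repeats, was at 7.69, 7.08, 8.22 and 10.5 CPM and then at 5.84, 4.05, 3.43, 4.18 and 3.99 CPM (log2 fold change -0.97, SE 0.16, adjusted p = 0.0495, edgeR). Of the same 9 analyses, Dkk3 was called in 4, Lrrc15 in 2, Megf6 in 1, Postn in 5, Fbn2 in 8 and Tnn in 9. Megf6 had the highest adjusted p of the called genes, and Thbs2 the smallest fold. The next genes by p were not called: Ptn, pleiotrophin, a heparin-binding growth factor of cartilage and bone, with a log2 fold change of -0.79 (adjusted p = 0.0555, edgeR), and Il1b, the cytokine interleukin 1 beta, with -0.70 (adjusted p = 0.0555, edgeR). Ptn was called lower in 11 of 22 alternative analyses, Megf6 in 8 and Il1b in 2.

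**Figure D2:**
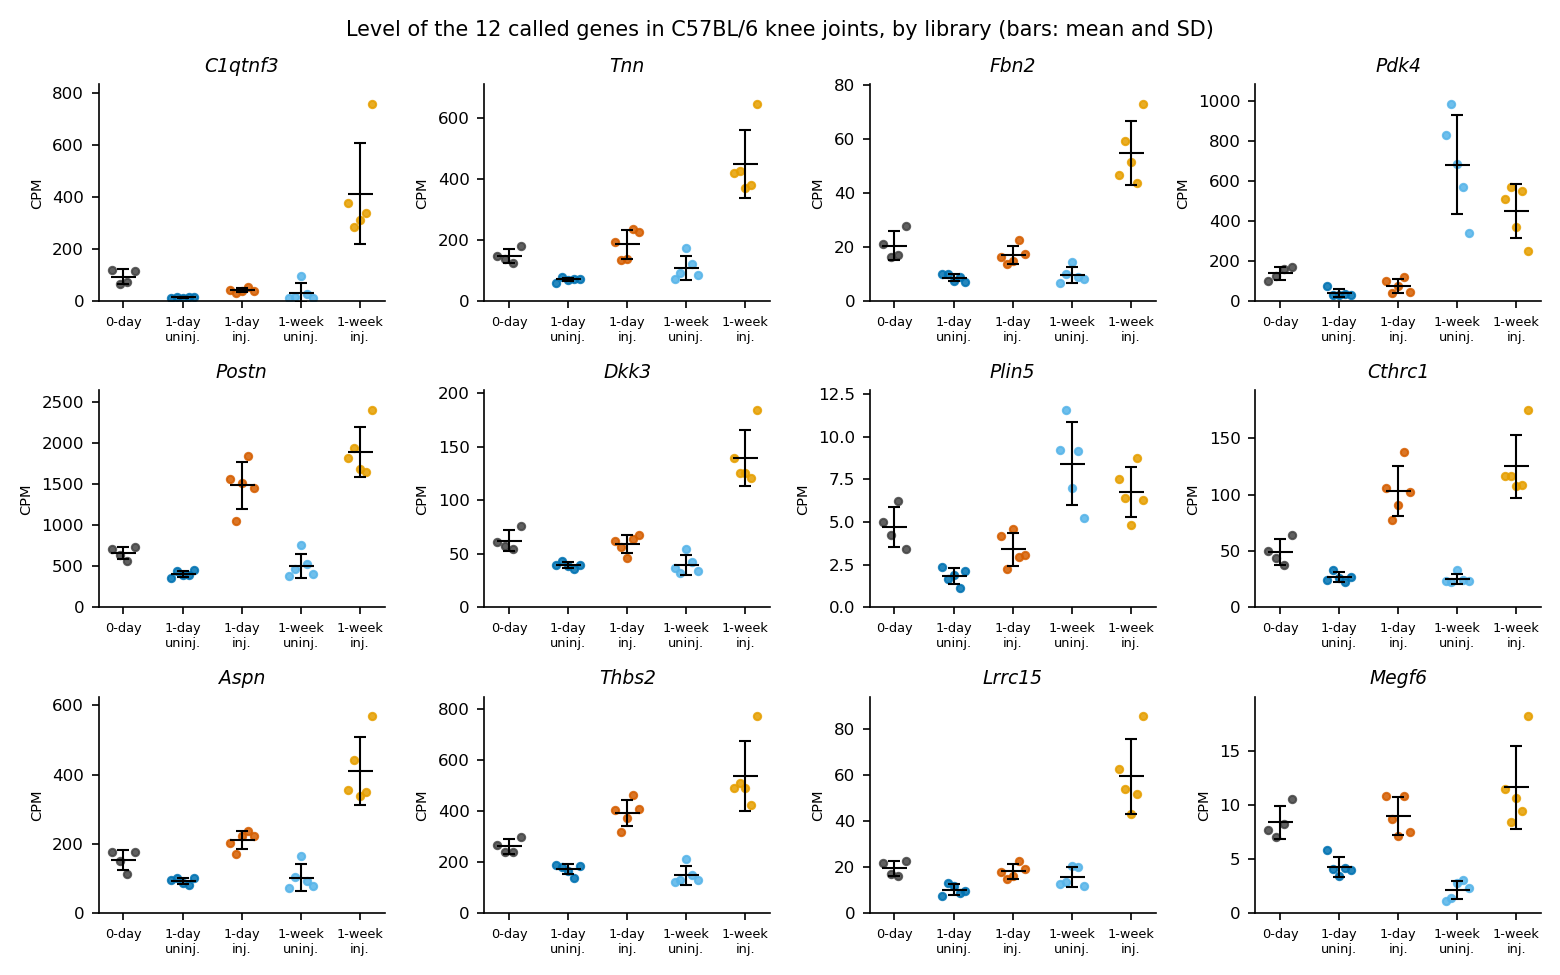
Level (CPM) of the 12 called genes in each C57BL/6 library of 0-day, of 1-day uninjured and injured and of 1-week uninjured and injured joints, each point a library, with the mean and SD of each group as bars. In every panel the 1-day uninjured points lie below all 0-day points, and in C1qtnf3 the highest of them is at 18.2 CPM where the lowest 0-day point is at 66.1 CPM.

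Sequences upstream of 3 of these matrix genes are shown because their genes were lower together. They are RefSeq genomic sequence of GRCm38.p6, up to 250 bases that end at the outermost annotated start of the gene, written 5′ to 3′ on the strand of the gene. Capitals mark matches on either strand to the letters TATAAA (the TATA box), CCAAT (the CCAAT box), AGGTCA (the core of nuclear receptor sites), CACGTG (the E-box that clock proteins bind), TGACTCA (an AP-1 site) and GGAATG (a TEAD site). The windows are chr1:160153693-160153825 (minus strand) for Tnn, chr13:49544193-49544442 (plus strand) for Aspn and chr17:14694263-14694512 (minus strand) for Thbs2.
Tnn: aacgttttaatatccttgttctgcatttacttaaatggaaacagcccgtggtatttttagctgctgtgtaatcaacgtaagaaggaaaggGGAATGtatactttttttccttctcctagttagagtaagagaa
Aspn: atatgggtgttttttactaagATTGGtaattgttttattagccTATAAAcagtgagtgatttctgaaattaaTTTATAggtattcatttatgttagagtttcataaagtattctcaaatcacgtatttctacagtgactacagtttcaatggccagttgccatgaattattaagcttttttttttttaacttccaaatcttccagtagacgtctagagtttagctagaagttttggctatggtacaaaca
Thbs2: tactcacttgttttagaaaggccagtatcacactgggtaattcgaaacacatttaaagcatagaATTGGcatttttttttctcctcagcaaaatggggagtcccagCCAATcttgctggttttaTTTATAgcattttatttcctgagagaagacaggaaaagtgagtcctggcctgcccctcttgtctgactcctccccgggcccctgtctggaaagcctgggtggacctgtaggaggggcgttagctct
Among all 32851 windows of 250 bases before a start in the RefSeq promoter table, TATAAA was found in 12.4%, CCAAT in 33.8% and GGAATG in 12.6%. Of the 11 such windows that 9 of the called genes had, 4 held TATAAA, 6 CCAAT and 2 GGAATG, also counting starts outside the bases shown. A match is a string of letters and says nothing of a protein bound there.

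Most of the wider family of fibrous matrix genes was fitted below 0, with 1 call. Of 20 measured genes of this list, which holds the fibrillar collagens and their partners, 1 was called lower (Postn) and 0 higher by edgeR's quasi-likelihood test, beside 0.0693% of all genes called, while 19 had a fitted value below 0, with a median log2 fold change of -0.33 (range -0.70 to 0.02) beside 0.01 over all genes. In 10 of the 20 the unadjusted p was below 0.05 in the lower direction, against 3.43% of all genes. DESeq2 called 2 of the list (Postn and Col3a1, a chain of collagen III), and the fits of 24 and of 70 libraries called 0, as did the analyses without replicate 1, 2 or 4 of 0-day or without replicate 3 of 1-day. Col1a1, the main chain of collagen I, was at 9010, 11208, 10736 and 13194 CPM at 0-day and at 10818, 10113, 7689, 7979 and 6144 CPM at 1-day, with overlapping groups (log2 fold change -0.37, SE 0.18, adjusted p = 0.773, edgeR). Col12a1, which decorates collagen fibrils, and Col16a1 missed the threshold with log2 fold changes of -0.43 (adjusted p = 0.177, edgeR) and -0.53 (adjusted p = 0.0662, edgeR). The summed level of the list ran from 36330 to 46209 CPM at 0-day and from 26068 to 37785 CPM at 1-day.

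Most matrix proteases and their inhibitors were fitted below 0 as well. Of 17 genes of this list, which includes the inhibitors Timp1, Timp2 and Timp3, edgeR's quasi-likelihood test called 0 where DESeq2 and the likelihood ratio test each called 1 lower (Adamts4), 15 were fitted lower, and the median log2 fold change was -0.22. Loxl2, a lysyl oxidase that crosslinks collagen, had a log2 fold change of -0.56 (adjusted p = 0.178, edgeR). Of the markers of cell types that make matrix, edgeR's quasi-likelihood test called 0. Of 17 cartilage genes 16 were fitted lower (median -0.32), with summed levels of 6627 to 13248 CPM at 0-day and 7761 to 9061 CPM at 1-day, so the 0-day group enclosed the other. Col2a1 in the 0-day joints was at 1359 CPM in replicate 1 and at 3415 to 4310 CPM in the other 3. Of 9 tendon and ligament genes 6 were fitted lower (median -0.19, summed levels 1709 to 2473 and 1341 to 2010 CPM). Of 11 synovial fibroblast genes 10 were fitted lower (median -0.08), and of 14 bone genes 9 (median -0.06). The part of these cell types in the lower matrix genes was not tested.

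Genes of fuel use held the other 2 calls. Pdk4, pyruvate dehydrogenase kinase 4, shuts off the entry of glucose carbon into the mitochondrial cycle and is high in muscle and other tissues that burn fatty acids, as in fasting. It lies on chromosome 6 from 5483351 to 5496278. Its levels were 99.2, 124, 162 and 170 CPM at 0-day and 77.0, 32.8, 31.2, 36.6 and 31.5 CPM at 1-day, so the groups did not overlap and replicate 1, the library with most muscle RNA, was the nearest to 0-day (log2 fold change -1.74, SE 0.24, adjusted p = 0.0157, edgeR). Without that library the log2 fold change of Pdk4 was -2.07 (adjusted p = 8.21e-06, edgeR), and without replicate 3 of 1-day it was -1.65 and no longer called (adjusted p = 0.0812, edgeR). Pdk4 was called in 6 of 9 analyses that left out a library, and not without replicate 2, 3 or 5 of 1-day. Plin5, perilipin 5, coats lipid droplets next to mitochondria in cells that oxidise fat. It lies on chromosome 17 from 56111597 to 56117606, and it was at 4.98, 4.26, 6.21 and 3.44 CPM at 0-day and at 2.36, 1.66, 1.89, 1.12 and 2.12 CPM at 1-day, from counts between 18 and 68 reads (log2 fold change -1.43, SE 0.23, adjusted p = 0.0437, edgeR). Without replicate 1 of 1-day the log2 fold change of Plin5 was -1.53 (adjusted p = 0.0269, edgeR), and without replicate 3 it was -1.45 and no longer called (adjusted p = 0.146, edgeR). Plin5 was called in 2 of 9 analyses that left out a library, those without replicate 1 of 1-day and without replicate 4 of 0-day.

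Windows upstream of Pdk4 and Plin5 are given for the same letters, at chr6:5496279-5496528 (minus strand) for Pdk4 and at chr17:56117607-56117798 (minus strand) for Plin5, because these 2 genes share a role that the other called genes lack.
Pdk4: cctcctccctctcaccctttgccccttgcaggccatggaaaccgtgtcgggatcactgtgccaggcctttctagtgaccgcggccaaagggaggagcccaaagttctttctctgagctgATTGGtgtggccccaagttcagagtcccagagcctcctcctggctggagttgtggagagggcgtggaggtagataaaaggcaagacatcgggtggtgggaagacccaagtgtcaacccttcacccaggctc
Plin5: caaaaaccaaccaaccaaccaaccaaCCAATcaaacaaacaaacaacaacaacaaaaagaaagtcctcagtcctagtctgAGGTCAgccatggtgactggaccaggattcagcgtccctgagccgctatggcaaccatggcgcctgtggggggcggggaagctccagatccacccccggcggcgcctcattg
AGGTCA, present in 14.0% of all windows, appears for Plin5 and not in the bases shown for Pdk4, and it was in 2 of the 11 windows of the called genes, those of Plin5 and of the matrix gene Postn. CACGTG was in 0 of the 11 windows and in 6.02% of all. TGACTCA was in 2 of the 11 and in 4.46% of all.

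Around these calls the list of fatty acid oxidation genes and targets of the PPAR receptors, the nuclear receptors that sense fatty acids, had 2 of 19 genes called lower and 0 higher (0.0693% of all genes were called lower), with 16 fitted lower and a median log2 fold change of -0.16. In 9 of the 19 the unadjusted p was below 0.05, all in the lower direction, against 3.43% of all genes. Ucp3, a mitochondrial carrier of muscle, was at 37.3, 34.3, 36.9 and 41.6 CPM at 0-day and at 33.8, 13.0, 16.2, 15.6 and 15.7 CPM at 1-day, again with replicate 1 close to the 0-day level (log2 fold change -1.01, SE 0.21, adjusted p = 0.178, edgeR). Without replicate 1 of the 1-day uninjured group Ucp3 passed, with a log2 fold change of -1.31 (adjusted p = 8.21e-06, edgeR). Of 9 analyses that left out a library this was the only 1 that called it, and in another the adjusted p rose to 0.514 (edgeR). DESeq2 and the likelihood ratio test, on all 9 libraries, called Ucp3 lower too, and 4 of 22 alternatives did. Cpt1a, the gate through which fatty acids enter mitochondria, had 73.1 to 108 and 57.1 to 72.5 CPM (log2 fold change -0.48, adjusted p = 0.28, edgeR).

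Most genes of fatty acid synthesis were fitted above 0, and edgeR's quasi-likelihood test called 0, where DESeq2 and the fit of 70 libraries called 1 (Acaca) and the likelihood ratio test 2 (Acaca and Fasn). Of 15 genes 14 were fitted higher (median log2 fold change 0.26), and 8 had an unadjusted p below 0.05 in the higher direction, against 2.96% of all genes. Acaca, acetyl-CoA carboxylase, which makes the building block of fatty acids, was at 64.4, 48.6, 57.3 and 51.9 CPM at 0-day and at 79.5, 103, 68.4, 71.1 and 108 CPM at 1-day (log2 fold change 0.63, SE 0.14, adjusted p = 0.244, edgeR). Its groups did not overlap, which in the higher direction was so for 0.843% of all genes. Fasn, fatty acid synthase, was at 123, 63.0, 76.4 and 86.9 CPM and then at 191, 242, 95.4, 122 and 223 CPM, with overlap (log2 fold change 1.00, SE 0.25, adjusted p = 0.433, edgeR). Scd1, which desaturates fatty acids, was at 384 to 718 CPM and then at 422 to 1222 CPM, and Thrsp, a regulator of fat synthesis, at 23.0 to 58.1 CPM and then at 43.7 to 98.3 CPM. Of 12 white fat markers 11 were fitted higher (median 0.15) and 0 were called, and whether fat content moved with these genes was not tested.

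**Figure D3:**
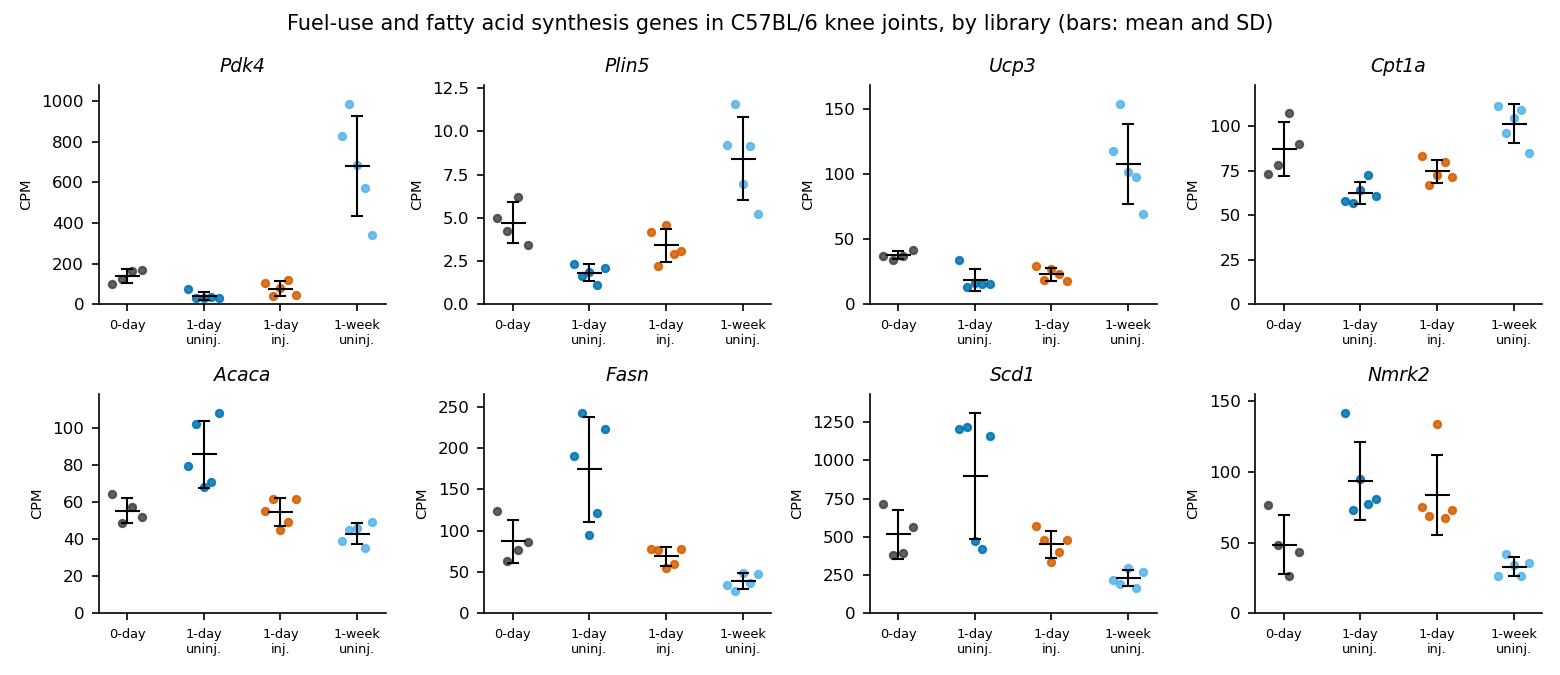
Level (CPM) of 8 genes of fuel use and fatty acid synthesis in each C57BL/6 library of 0-day, 1-day uninjured, 1-day injured and 1-week uninjured joints, each point a library, with the mean and SD of each group as bars. Pdk4 and Plin5 are lower at 1-day than at 0-day in the unhurt joint and higher at 1-week, where Pdk4 reaches 339 to 982 CPM. Acaca and Fasn, which did not pass the test at 1-day, have their highest group mean in the unhurt joint at 1-day.

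The genes with the smallest p in the higher direction were Acaca, Aldh1l1, Slc30a10, Fasn, Zfp773, Fcer2a, Nmrk2, Aunip, Gstt1 and AW011738, and none of these 10 passed the quasi-likelihood test of the 9 libraries. In 22 alternative analyses Aldh1l1 was called in 5, Acaca in 3 and Fasn, Slc30a10 and Nmrk2 in 1 each. Aldh1l1, a folate enzyme, was at 7.33, 4.02, 6.12 and 5.99 CPM at 0-day and at 14.8, 23.5, 21.2, 7.29 and 11.1 CPM at 1-day (log2 fold change 1.39, SE 0.30, adjusted p = 0.25, edgeR). Nmrk2, a nicotinamide riboside kinase of muscle that supplies NAD, was at 76.6, 48.2, 26.6 and 43.1 CPM and then at 141, 73.3, 94.9, 77.5 and 80.8 CPM (log2 fold change 0.94, SE 0.24, adjusted p = 0.453, edgeR). Without replicate 1 of the 1-day uninjured group the log2 fold change of Nmrk2 was 0.74 (adjusted p = 0.2, edgeR). Both genes had 1 library that closed the gap, replicate 4 of the 1-day uninjured group for Aldh1l1 and replicate 1 of 0-day for Nmrk2.

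Genes of the circadian clock, which many genes of fuel use follow, were examined because the hour of collection is not given in the sources used here. Of 18 clock genes edgeR's quasi-likelihood test called 0, while Npas2 was called lower in 5 of 22 alternative analyses, DESeq2 among them, and 8 had an unadjusted p below 0.05, 5 of them higher and 3 lower (2.96% and 3.43% of all genes). Npas2, a partner of the core clock protein BMAL1, was at 4.44, 4.18, 3.47 and 10.6 CPM at 0-day and at 2.02, 1.66, 2.62, 2.65 and 2.46 CPM at 1-day, without overlap (log2 fold change -1.27, SE 0.30, adjusted p = 0.357, edgeR). Replicate 4 of 0-day stood above the other 3, and without it the log2 fold change of Npas2 was -0.80 (adjusted p = 0.543, edgeR). Arntl, which encodes BMAL1, and Clock had log2 fold changes of -0.42 and -0.28, and Per3 and Hlf, which peak at other hours, had 0.46 and 0.49. The part of the hour of collection in the lower Pdk4 and Plin5 was not tested.

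Lists of inflammation and systemic stress held 0 genes called by the quasi-likelihood test of edgeR, where 0.0693% of all genes were called, so a count of 0 sets these lists apart from no others. Their counts by unadjusted p stand beside 2.96% of all genes in the higher and 3.43% in the lower direction. Of 20 inflammatory cytokines and chemokines 0 were called (2 had an unadjusted p below 0.05, both lower, and DESeq2 and the likelihood ratio test each called Il1b lower), 8 were fitted higher and 11 lower, and 1 had no count in the 9 libraries (median -0.09). A stricter filter on counts, edgeR's filterByExpr, kept 12 of the 20. The rest had few reads, so a small change in them could go unseen. Ccl2, the chemokine that draws monocytes, was at 0.274 to 1.13 CPM at 0-day and at 0.361 to 1.27 CPM in the unhurt joint at 1-day, while the injured joints of the same day had 5.69 to 9.74 CPM. Il1b, which missed the threshold (above), had 27.2, 19.8, 19.3 and 18.4 CPM at 0-day and 11.5, 14.1, 13.6, 14.0 and 11.5 CPM at 1-day, and its groups did not overlap. Saa3, an acute phase protein, had 0 to 0.295 CPM at 0-day, 0 to 1.02 CPM in the unhurt joint and 4.17 to 10.1 CPM in the injured joint. Saa3 had 0 to 12 reads in each library of the first 2 groups, with a log2 fold change of 1.35 between them (adjusted p = 0.839, edgeR). At this depth a small difference of Saa3 could go unseen, though both groups lay below every injured joint. Of 16 acute phase genes, 20 interferon-stimulated genes and 18 glucocorticoid-induced genes 0 were called by edgeR or by DESeq2, with medians of -0.05, 0.02 and 0.00, and with 0, 0 and 3 genes at an unadjusted p below 0.05. The stricter filter kept 10 of the 16 acute phase genes.

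The remaining lists had no call by edgeR's quasi-likelihood test either. All 20 proliferation genes were fitted higher, with a median log2 fold change of 0.16, and 4 had an unadjusted p below 0.05. All 13 erythroid genes were fitted higher as well (median 0.23, summed levels 4843 to 6574 CPM at 0-day and 5080 to 7797 CPM at 1-day). Marrow neutrophil genes had a median of -0.06 over 18 genes, with summed levels of 16749 to 20457 CPM and 16765 to 21022 CPM. Of 11 endothelial genes and 10 megakaryocyte and platelet genes all were fitted lower, with medians of -0.11 and -0.12. Of 15 fast muscle genes 13 were fitted higher (median 0.25), and without replicate 1 of the 1-day uninjured group 8 were, with a median of 0.00. The likelihood ratio test called 1 of them lower (Myh1). Immediate early genes, which respond within minutes to handling and stress, had 15 of 20 fitted lower (median -0.13) and 0 called.

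**Figure D4:**
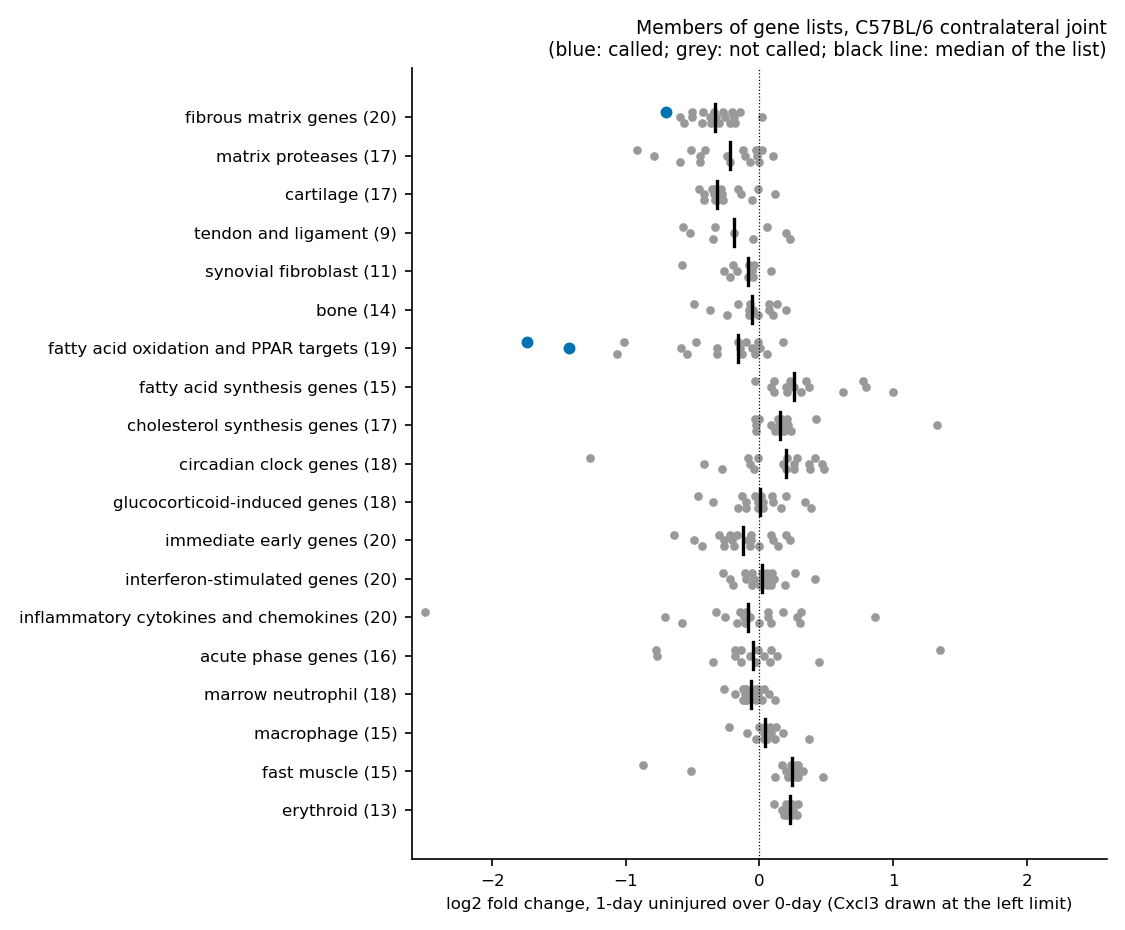
Log2 fold change, 1-day uninjured over 0-day, of the members of each gene list in C57BL/6 joints, a point for each gene (blue for called, grey for not called) and a black line at the median of the list, with the number of measured genes in brackets; Cxcl3, at -3.18, is drawn at the left limit. Called genes appear in the list of fatty acid oxidation and PPAR targets (2 genes) and in that of fibrous matrix genes (1 gene), all of them below 0.

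The contralateral joint was next followed to 1-week, in a fit of the 24 C57BL/6 libraries of batch 1. This comparison shares its 4 0-day libraries with that at 1-day, by which the 12 genes were chosen. A high level in those libraries lowers the values at 1-week as well, so they are a description of levels. In this fit 8 genes were called lower at 1-day, with 5 of the 12 among them (C1qtnf3, Tnn, Fbn2, Pdk4 and Plin5). At 1-week 182 genes were called higher and 777 lower than at 0-day (1.05% and 4.49%). Of the 12 genes called at 1-day, 7 were called lower at 1-week: C1qtnf3, Fbn2, Dkk3, Cthrc1, Aspn, Thbs2 and Megf6. Megf6 went to 1.15, 1.44, 2.77, 3.08 and 2.36 CPM, below its range at 1-day (log2 fold change against 0-day -1.90, SE 0.25, adjusted p = 1.39e-05, edgeR). C1qtnf3 was at 12.2, 17.1, 96.1, 28.0 and 13.4 CPM at 1-week, with replicate 3 within the 0-day range and the other 4 below it (log2 fold change -1.48, SE 0.40, adjusted p = 0.0131, edgeR). Without replicate 3 of 1-week the log2 fold change of C1qtnf3 was -2.42 (adjusted p = 7.99e-06, edgeR). Tnn, Postn and Lrrc15 had log2 fold changes of -0.44, -0.39 and -0.30 at 1-week and were not called. When each library of both groups was left out in turn, 5 to 9 of the 12 were called lower: 9 without replicate 3 of 1-week, the highest library in many of these genes, where Tnn and Postn passed as well, 7 without replicate 3 of 0-day, 5 without replicate 4 of 0-day and 6 in each other case. Aspn lost its 1-week call in 7 of these 9 analyses, and Dkk3 lost it without replicate 4 of 0-day. At 2-weeks, in the other batch, C1qtnf3 lay between 8.07 and 10.7 CPM in the contralateral joint, a value in which batch and time cannot be told apart.

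Both fuel genes were called in the opposite direction at 1-week. Pdk4 was at 827, 982, 687, 571 and 339 CPM, above every library of 0-day and of 1-day (log2 fold change against 0-day 2.29, SE 0.34, adjusted p = 4.35e-05, edgeR). Plin5 was at 9.24, 11.6, 6.98, 9.15 and 5.21 CPM (log2 fold change 0.81, SE 0.22, adjusted p = 0.0137, edgeR), and it was not called without replicate 4 of 0-day or without replicate 2 of 1-week. Ucp3 was called higher and Fasn, Scd1 and Thrsp lower than at 0-day, with log2 fold changes of 1.51, -1.17, -1.18 and -1.12 (adjusted p from 9e-05 to 0.00265, edgeR). Between 1-day and 1-week, a comparison that shares the 1-day libraries, the unhurt joint had log2 fold changes of 4.04 for Pdk4 (SE 0.34) and of -2.16 for Fasn (SE 0.22), both called, where 1.45% of all genes were called higher and 3.13% lower. Col1a1, not called at 1-day, was called lower at 1-week (log2 fold change -1.09, SE 0.19, adjusted p = 0.000275, edgeR).

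In the injured joint of the same day the 12 genes stood higher than in the unhurt joint. This comparison shares the 5 1-day uninjured libraries with the choice of the genes, and a low level in them raises its values, so it is a description of levels. By the study's design injured and contralateral joints are knees of the same mice. The labels do not say which belong together, and the fit held no term for the animal. The genes were called in all 12 cases, with a median log2 difference, injured over uninjured, of 1.14 (range 0.61 to 1.96), where 4.41% of all genes were called higher. Cthrc1 and Postn had the largest values, 1.96 and 1.88. Against 0-day, whose libraries were shared as well, the injured joint was higher in 3 of the 12, with log2 fold changes of 1.17 for Postn, 1.09 for Cthrc1 and 0.59 for Thbs2 (adjusted p from 1.6e-05 to 0.0114, edgeR), where 3.10% of all genes were. The other 9 were not called, among them C1qtnf3, which had 45.4, 33.2, 39.0, 55.6 and 40.7 CPM in the injured joint, between its levels in the 0-day and the unhurt joints (log2 fold change against 0-day -1.13, SE 0.39, adjusted p = 0.063, edgeR). By 1-week the injured joint held 414 ± 195 CPM of C1qtnf3 (SD, n = 5) and 1899 ± 305 CPM of Postn (SD, n = 5).

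The same genes were followed in the unhurt joint of the other strains. MRL/MpJ, a strain known for good healing, and STR/ort, a strain prone to osteoarthritis, each had 4 libraries of 0-day and 5 of 1-day uninjured joints at the same age in the same batch, and these share no library with C57BL/6. Their own comparisons came from 1 fit of 27 libraries. In this fit C57BL/6 had 9 of the 12 genes called lower, all but Aspn, Lrrc15 and Megf6. In MRL/MpJ 11 genes were called higher and 8 lower at 1-day (0.0635% and 0.0462%), and in STR/ort 559 and 1205 (3.23% and 6.96%). Of the 12 genes, MRL/MpJ had 0 called, with 7 fitted higher and 5 lower and a median log2 fold change of 0.04. STR/ort had 2 called lower, Pdk4 with -1.53 (SE 0.27) and Plin5 with -1.74 (SE 0.24), and 10 fitted higher. C1qtnf3 in MRL/MpJ was at 7.59, 4.77, 6.72 and 6.55 CPM at 0-day and at 5.59, 6.29, 6.69, 5.89 and 8.02 CPM at 1-day, and in STR/ort at 15.6 to 33.5 CPM and then at 11.4 to 60.5 CPM, with overlap in both.

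**Figure D5:**
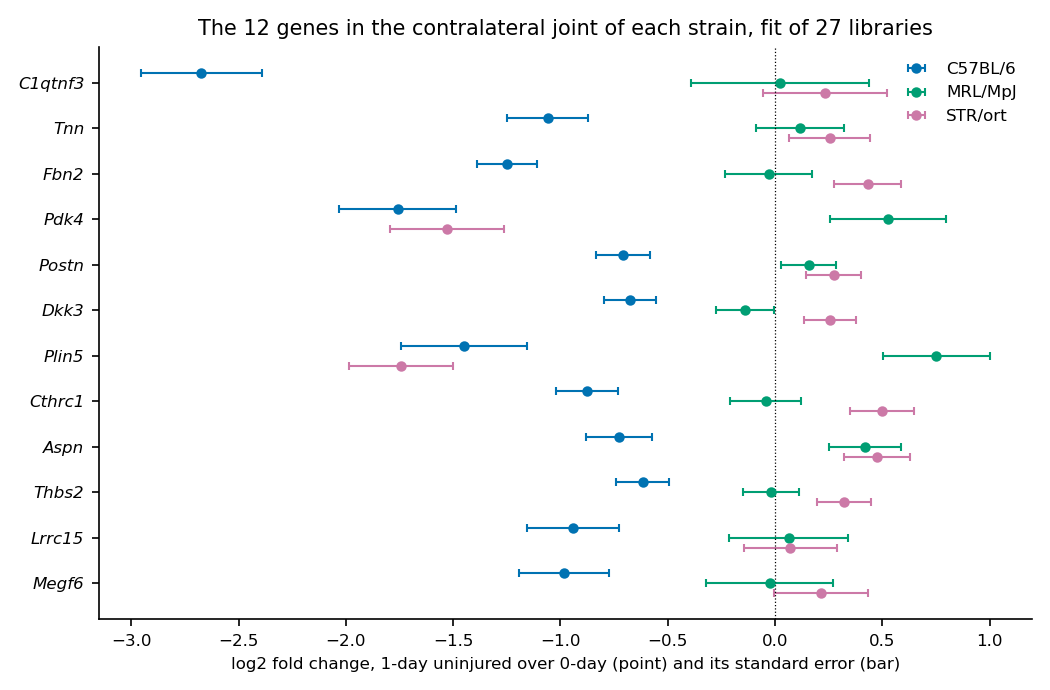
Log2 fold change, 1-day uninjured over 0-day, of the 12 genes in C57BL/6, MRL/MpJ and STR/ort contralateral joints, from 1 fit of 27 libraries, with the standard error as a bar. The C57BL/6 values are all below 0, those of MRL/MpJ lie between -0.14 and 0.75, and those of STR/ort lie above 0 except Pdk4 and Plin5.

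The difference of the changes between strains was tested itself. The 12 genes were chosen on the C57BL/6 change, which is a part of each difference, so a lean below 0 follows in part from the choice. Against MRL/MpJ 5 of the 12 were called, where 0.0404% of all genes were called in this direction: C1qtnf3 with a difference of -2.70 (SE 0.50, adjusted p = 0.0267, edgeR), Fbn2 with -1.22, Pdk4 with -2.29, Plin5 with -2.20 and Aspn with -1.14. Against STR/ort 10 of the 12 were called, where 3.92% of all genes were, and the 2 that were not were Pdk4 with -0.23 (SE 0.38, adjusted p = 0.73, edgeR) and Plin5 with 0.30 (SE 0.39, adjusted p = 0.654, edgeR). The changes of the matrix genes thus differed from those in STR/ort, with Fbn2 at -1.68, Cthrc1 at -1.38 and Tnn at -1.31. With 1 RUVg factor from the housekeeping genes the number of genes called in this difference over the whole table fell from 1669 to 141, of which 9 were among the 12. Without replicate 3 of the 1-day uninjured group, or without replicate 4 of 0-day, only Pdk4 and Plin5 of the 12 were called against MRL/MpJ. The change of Pdk4 in the same fit was -2.32 to -1.20 in C57BL/6 and -2.07 to -0.99 in STR/ort (95% confidence intervals). Nmrk2, fitted higher but not called in C57BL/6, was called lower in both other strains, with log2 fold changes of -1.49 in MRL/MpJ and -2.33 in STR/ort, and its difference of changes was 2.41 (adjusted p = 0.00309, edgeR) and 3.26 (adjusted p = 3.58e-06, edgeR), where 0.0231% and 5.73% of all genes were called in that direction.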

How the data were processed

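Poly(A) RNA of mouse knee joints was sequenced in 100 libraries, grouped by strain, time and joint as in the labels. The authors aligned reads to mm10 with TopHat2 (2.0.11), counted reads on RefSeq genes with featureCounts and deposited whole-number counts without normalization (strand setting not given in the sources used here). Of 17313 rows 3 repeats were dropped, and 24 names had become dates. The study's filter of 2 or more counts in 5 or more libraries left all 17310 genes. C57BL/6 1-day uninjured joints were compared with 0-day joints by the quasi-likelihood test of edgeR (4.0.16, R 4.3.3) with TMM factors over the 9 libraries and Benjamini-Hochberg adjustment. Standard errors were derived from the fold change and its F statistic. CPM used TMM factors over all 100 libraries. The 1-week and injured joints came from a fit of 24 libraries and the strains from a fit of 27.

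The genes named in each direction are the 10 called with the smallest p (the 10 smallest p where fewer were called) and the 5 called with the largest fold. For each of 40 lists, except that of the housekeeping genes, its called members are named and, with fewer than 2 called, its 2 most abundant. Ptn, Il1b, Col12a1, Col16a1, Loxl2, Lrrc15, Megf6, Ucp3, Cpt1a, Thrsp, Npas2, Arntl, Clock, Per3, Hlf, Ccl2, Saa3, Cxcl3, Adamts4, Timp1, Timp2, Timp3, Myh1 and Col3a1 were added after their values were seen. Members and lists were chosen with earlier results of these data known. Alternatives were RLE factors, RUVg with 1 and 2 factors or scaling from the 25 housekeeping genes, DESeq2 (1.42.0), the likelihood ratio test, other filters, fits of 24, 27 and 70 libraries, a replicate block and each library left out. Promoter letters came from RefSeq (GRCm38.p6), which held windows for 9 of the 12 called genes. The methods were tested on simulated data, and 0 pairs of libraries were identical. Gene positions were matched for 16662 genes. The values of 1 gene are not reported here.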

Additional observations from a re-analysis of the deposited data

Results flagged for a closer look

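In groups of 4 or 5 libraries, 10 of 111 sets of levels held a library far from the others by Dixon's criterion, which chance alone does in about 1 of 20 groups. In replicate 3 of the 1-week uninjured C57BL/6 joints, C1qtnf3 was at 96.1 CPM (others 12.2 to 28.0), Cthrc1 at 33.5 CPM (others 22.06 to 23.97), Thbs2 at 212 CPM (others 124 to 149) and Col12a1 at 326 CPM (others 221 to 248). In replicate 1 of the 1-day uninjured joints, Pdk4 was at 77.0 CPM (others 31.2 to 36.6), Ucp3 at 33.8 CPM (others 13.0 to 16.2) and Myh4, the fast muscle myosin, at 37360 CPM (others 14764 to 19637). At 0-day Il1b was at 27.2 CPM in replicate 1 (others 18.4 to 19.8) and Npas2 at 10.6 CPM in replicate 4 (others 3.47 to 4.44). Thrsp was at 24.8 CPM in replicate 5 of 1-week uninjured joints (others 15.9 to 17.4).

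The change of the unhurt joint from 0-day to 1-day differed between strains (edgeR, called) for 6 of 37 genes against MRL/MpJ, where 0.0404% of all genes were called lower and 0.0231% higher in this difference. Against STR/ort it differed for 24 of the 37, where 3.92% and 5.73% of all genes were, and with 1 RUVg factor the total over all genes fell there from 1669 to 141. Most of the 37 were chosen on the C57BL/6 change, which is part of each difference. C57BL/6 minus MRL/MpJ on the log2 scale was -2.70 for C1qtnf3, -1.22 for Fbn2, -1.14 for Aspn, -2.29 for Pdk4, -2.20 for Plin5 and 2.41 for Nmrk2. C57BL/6 minus STR/ort was negative for the matrix genes, with -2.90 for C1qtnf3, -1.31 for Tnn, -1.68 for Fbn2, -0.98 for Postn, -0.93 for Dkk3, -1.38 for Cthrc1, -1.20 for Aspn, -0.94 for Thbs2, -1.20 for Megf6 and -1.01 for Lrrc15. The same difference was -0.78 for Ptn, -0.63 for Col16a1, -0.59 for Col12a1, -0.79 for Loxl2, -0.80 for Col1a1, -0.95 for Cpt1a and -0.94 for Prg4. It was positive for genes of fatty acid synthesis, the folate enzyme Aldh1l1, the clock gene Hlf and genes of muscle, with 1.01 for Acaca, 2.20 for Fasn, 1.80 for Thrsp, 1.43 for Aldh1l1, 0.74 for Hlf, 3.26 for Nmrk2 and 1.08 for Myh4. Without replicate 1 of the 1-day uninjured C57BL/6 joints the difference was 3.07 for Nmrk2 and 0.79 for Myh4, both called, and with 1 RUVg factor it was 2.34 for Nmrk2 (called) and 0.49 for Myh4 (not called). Fasn at 0-day in STR/ort was at 39.4, 43.0, 161 and 136 CPM, so its libraries were split, and at 32.4 to 51.7 CPM at 1-day.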

How the results depend on the processing

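All 12 genes kept their sign in 22 alternatives. Leaving out a library could hardly turn a sign, since the groups did not overlap in these genes. The alternative without a filter equals the main analysis, because the study's filter removed 0 genes, and each count out of 22 includes it. C1qtnf3 was called in 22 of them, Tnn and Fbn2 in 21, Pdk4 in 19, Postn in 16, Dkk3 in 15, Cthrc1 in 13, Plin5 in 12, Aspn, Thbs2 and Lrrc15 in 10 and Megf6 in 8. The number of genes called lower, 12 in the main analysis, was 25 with DESeq2, 29 with the likelihood ratio test and 6 with filterByExpr, which tested 14551 genes. The number called higher, 0 in the main analysis, was 2 with 2 RUVg factors, 1 with DESeq2, 4 with the likelihood ratio test, 1 in the fit of 27 libraries and 2 in the fit of 70. Leaving out each library gave 2 to 12 lower and 0 to 2 higher. Lower genes numbered 4 without replicate 1 or 2 of 0-day, 5 without replicate 4 of 0-day, and 7, 2, 8 and 4 without replicate 2, 3, 4 or 5 of the 1-day uninjured group. At 1-week, 99 to 256 genes were called higher when a library was left out (108 without replicate 4 of 0-day and 99 without replicate 2 of 1-week) and 543 or more lower. The number of genes whose change differed from MRL/MpJ, 11, was 18 with 1 RUVg factor, 19 with housekeeping scaling and 36 with DESeq2, and 3 to 20 with a library left out, and for STR/ort 1669 became 141 with 1 RUVg factor. The cause of these shifts was not tested. The same replicate numbers occur in both groups, but they were not taken as pairs, since correlations of deviations for numbers 1 to 4 were 0.228, -0.018, 0.177 and 0.110; 3 of the 4 were best matched to their own number. With the replicate block 20 genes were lower (the 12 among them) and 6 higher, and 7 differed from MRL/MpJ. Depth limits genes at few reads, such as Saa3 and Plin5.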

Other observations

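Several further lists had no called gene. Of 17 cholesterol synthesis genes 13 were fitted higher in the unhurt joint at 1-day (median log2 fold change 0.15), and of 18 ribosomal protein genes 17 (median 0.09). Of 12 osteoclast genes 9 were fitted higher (median 0.21), and 4 had an unadjusted p below 0.05. Of 18 genes of the unfolded protein response 14 were fitted lower (median -0.08). Macrophage genes, 15 in number, had a median of 0.04. Fhl1, a muscle protein with LIM domains, was at 435, 325, 409 and 294 CPM at 0-day and at 299, 263, 289, 203 and 240 CPM at 1-day (log2 fold change -0.50, SE 0.13, adjusted p = 0.451, edgeR), and it was called higher at 1-week (log2 fold change 0.79, adjusted p = 0.00265, edgeR).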
